A study of Arabidopsis thaliana with 12 samples.

Results

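Centromeres of Arabidopsis thaliana, a small flowering plant with 5 chromosomes, are bordered by gene-poor heterochromatin, and the genes described here are those whose locus identifiers fall, in identifier order, around these centromeres. The 5 identifier intervals run from AT1G37150 to AT1G42900, AT2G07700 to AT2G10900, AT3G29650 to AT3G43800, AT4G05500 to AT4G07900 and AT5G28800 to AT5G35300. Without AT3G30720, they take 1147 of the 32833 genes in the count tables, of which 32548 are nuclear. The 98 genes with AT2G07 identifiers, which lie around a copy of mitochondrial DNA inserted in chromosome 2, are given apart, which leaves 1049 genes. The genes were taken by identifier alone, with interval edges that were set when earlier results of these data were known.

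RNA was sequenced from whole seedlings of 4 groups with 3 libraries each, grown on soil at about 21 °C in long days from seed kept at 4 °C for 4 days beforehand, and harvested at day 12 after germination. Experiment 1 holds wild-type Col-0 (Columbia) and libraries labelled hira-1. Experiment 2 holds a second set of Col-0 and fas2-4. HIRA and FAS2 are both histone chaperone genes: HIRA places the variant H3.3, and FAS2 is a subunit of CAF-1, the complex that places H3.1 behind the replication fork. Nothing in the labels says that the 3 libraries of a group came from separate sowings or plants, so p-values measure the spread between these libraries, which may be technical.

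As background, a plant centromere is a long array of a short satellite repeat, on part of which the nucleosomes carry the centromeric H3 variant and the kinetochore assembles. The surrounding pericentromere is rich in transposable elements and is kept silent by DNA methylation, H3K9 dimethylation and heterochromatic histone variants. Genes are sparse there, and those that are active are embedded in silenced repeats, which makes them a natural place to look when histone deposition is altered.

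The label holds for the protein-coding genes and not for most of the others. In the TAIR10.1 reference the protein-coding genes of the 5 intervals mark out spans of chr1:14174798-16078567, chr2:3239693-4300871, chr3:11527756-15661987, chr4:2804403-4692653 and chr5:10823356-13518949. Each span runs over the protein-coding genes of its interval that start within 5 Mb of their median start. That these genes lie in the spans therefore follows from the definition. The spans add up to 11.7 Mb, which is 9.81% of the nuclear genome. They hold 143 of the 149 windows of 2 kb in which the sequence repeated itself at about the unit length of the satellite, and the longest assembly gap of each of the 5 chromosomes lies in its span. They carry 42.5 protein-coding genes per Mb, against 251 in the rest of the genome, and 169 annotated pseudogenes per Mb, against 26.6.

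Only 408 of the 1049 genes lie in these spans, 394 of them protein coding. The other 641 lie elsewhere although their identifiers fall in the intervals. Of these, 640 are noncoding RNA genes, among them 545 long noncoding RNAs, 37 small nucleolar RNAs and 29 microRNA genes. The 353 on chromosome 2 lie a median of 11.8 Mb from the span, and the 287 on chromosome 4 lie a median of 4.91 Mb from it. The single protein-coding gene among them, AT3G36659, lies 9.43 Mb from the span of chromosome 3. Conversely, 172 counted genes inside the spans have identifiers outside the intervals, 99 of them long noncoding RNA genes and 53 protein coding. The genes in the spans and the genes elsewhere are therefore described separately.

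**Figure D1:**
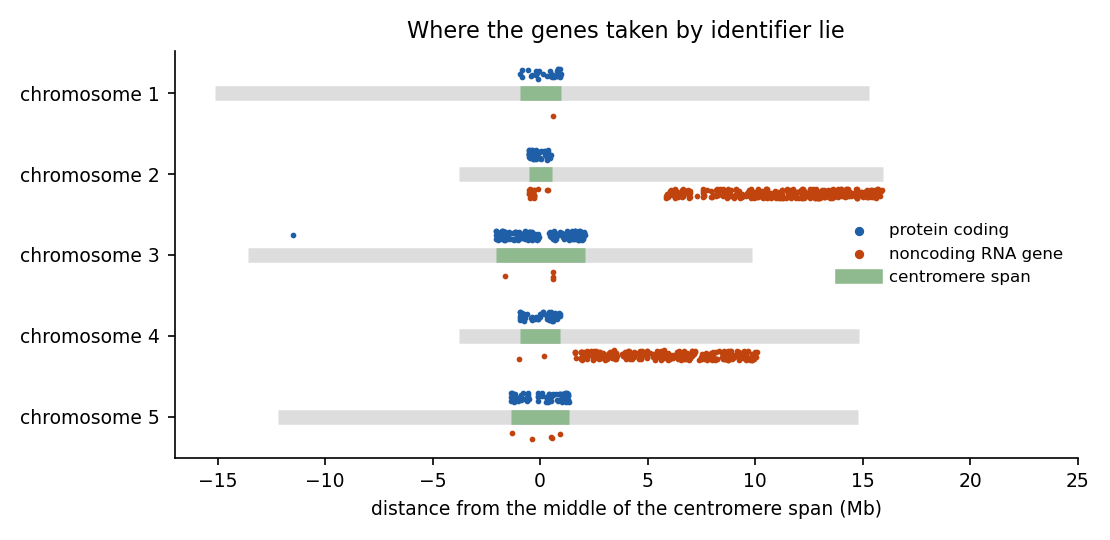
Positions of all 1147 genes taken by identifier, AT2G07 genes included, as distance in Mb from the middle of the centromere span (green) on each chromosome (grey). Protein-coding genes (blue) sit over the spans, which were drawn from them. Most noncoding RNA genes (orange) of chromosomes 2 and 4 lie along the long arm.

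The satellite repeat, which lies mostly within the spans, is shown by a pair of neighbouring satellite units from the window with the highest self-match of all windows in the spans, in which 94.9% of bases matched the base 178 positions on. Both come from the plus strand of TAIR10.1, chr3:13590001-13590178 and chr3:13590179-13590356. They differ at 7 positions, which are in capitals, and are 96.1% identical.
Unit 1: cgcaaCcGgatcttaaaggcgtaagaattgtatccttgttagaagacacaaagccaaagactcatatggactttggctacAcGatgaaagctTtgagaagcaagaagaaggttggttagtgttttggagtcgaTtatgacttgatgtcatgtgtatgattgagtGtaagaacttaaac
Unit 2: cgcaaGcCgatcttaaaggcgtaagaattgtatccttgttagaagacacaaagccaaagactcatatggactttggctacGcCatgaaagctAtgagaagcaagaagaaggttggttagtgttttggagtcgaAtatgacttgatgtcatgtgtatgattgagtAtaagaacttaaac

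Of the genes called in a comparison below, 3 kept the call in each of the 6 fits that left out 1 library, all in fas2-4, and their promoters are shown for that reason, from 250 bases before to 50 bases after the annotated start. AT3G42725 (chr3:14843669-14843968, minus strand) encodes a putative membrane lipoprotein, AT3G42860 (chr3:14948179-14948478, minus strand) a protein with a CCHC zinc knuckle, a small zinc-binding fold, and AT4G06080 (chr4:7847822-7848121, minus strand) a long noncoding RNA outside the spans. The build of the authors is TAIR10 per the submitters’ processing notes, and sequences and coordinates are from RefSeq TAIR10.1. Capitals mark matches on either strand to the TATA box (TATAAA) or the W-box (TTGAC), the core site of WRKY factors.
AT3G42725: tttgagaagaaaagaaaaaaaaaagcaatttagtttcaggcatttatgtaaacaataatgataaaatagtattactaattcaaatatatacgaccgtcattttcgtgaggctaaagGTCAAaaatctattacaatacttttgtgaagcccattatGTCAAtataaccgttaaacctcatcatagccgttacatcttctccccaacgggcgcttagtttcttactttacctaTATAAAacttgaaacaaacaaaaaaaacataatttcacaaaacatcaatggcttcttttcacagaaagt
AT3G42860: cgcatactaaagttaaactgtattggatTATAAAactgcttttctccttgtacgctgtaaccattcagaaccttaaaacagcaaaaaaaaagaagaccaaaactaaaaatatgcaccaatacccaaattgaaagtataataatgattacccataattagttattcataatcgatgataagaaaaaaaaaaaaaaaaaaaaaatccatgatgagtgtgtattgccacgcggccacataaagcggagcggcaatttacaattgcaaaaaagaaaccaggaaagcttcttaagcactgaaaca
AT4G06080: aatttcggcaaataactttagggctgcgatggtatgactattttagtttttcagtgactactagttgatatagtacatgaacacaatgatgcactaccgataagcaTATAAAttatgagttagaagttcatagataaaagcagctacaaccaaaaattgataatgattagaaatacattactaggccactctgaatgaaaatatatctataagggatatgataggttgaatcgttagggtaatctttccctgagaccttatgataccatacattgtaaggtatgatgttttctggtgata
The TATA box letters were found in all 3, at −19, −222 and −144 from the start in the order shown, and the W-box letters only in that of AT3G42725, at −134 and −95. None held the telo-box (AAACCCTA), the E2F site (TTTCCCGC) or the site of the DNA damage factor SOG1. Over the promoters of 27443 nuclear protein-coding genes, 52.1% held the TATA box, 50.5% the W-box, 6.22% the telo-box, 0.798% the E2F site and 11.8% the SOG1 site. Over the 394 protein-coding genes in the spans the shares were 49.0%, 46.2%, 5.84%, 0.761% and 8.88%. The motifs do not overlap one another in the printed windows.

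The libraries of experiment 1 held 20700171 to 21902258 counts and those of experiment 2 held 39258873 to 39510509, so weakly expressed genes were measured more precisely in experiment 2. The HIRA gene had no lower level under its own label (log2 fold change +0.56, SE 0.30, edgeR adjusted p = 0.198), and FAS2 was −0.40 in fas2-4 (SE 0.16, adjusted p = 0.156) and −0.65 in libraries labelled hira-1 (SE 0.31, adjusted p = 0.162). Neither gene passed the threshold under either label, so directions drawn from both comparisons rest on the labels. Summed CPM (counts scaled by library size to a common total) of 3 leaf markers was 40820 to 52131 per library in Col-0 of experiment 1 and 34373 to 42861 in libraries labelled hira-1, which overlapped, and 47411 to 59538 in Col-0 of experiment 2 and 34880 to 38308 in fas2-4, which did not. That of 3 petal and stamen markers was 3.301 to 4.92 and 2.67 to 2.995 in experiment 1 and 1.29 to 2.50 and 3.14 to 5.48 in experiment 2, in the same order and without overlap in either. The part of these markers in the results below was not tested. The sum of 3 root markers was 32.1 to 119 over all libraries, and those of the pollen and seed markers were at most 0.177. Among the root markers, 2 were at 0 in at least 1 group. Fewer cells of a type and less RNA per cell cannot be told apart in whole seedlings.

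Many genes in the centromere spans had no count in these seedlings. Of the 408, 197 (48.3%) had no count in any of the 12 libraries, 100 had counts but stayed under a mean of 1 CPM in every group, and 111 (27.2%) reached that mean in at least 1 group and are called expressed here. Among the 31401 other nuclear genes, 18.2% had no count and 58.5% were expressed. The contrast held among protein-coding genes, with 27.4% of 394 expressed in the spans, 45.5% of 1115 within 1 Mb outside the spans and 67.0% of all 27000 others. Of the 641 genes elsewhere, 412 (64.3%) had no count and 13 (2.03%) were expressed, beside 58.1% and 6.23% of the other nuclear noncoding RNA genes.

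The share expressed in a single library hardly varied. At 1 CPM in the library, 24.9% to 26.6% of the protein-coding genes in the spans were expressed over the 12 libraries, against 40.4% to 43.4% within 1 Mb outside and 61.4% to 65.7% of the others, so the ranges did not overlap. Over all 408 genes in the spans, 105 ± 1.15 (SD, n = 3) were expressed in Col-0 and 102 ± 1.15 in libraries labelled hira-1 (exact permutation test, 2-sided, p = 0.1, the smallest that 3 against 3 allows). In experiment 2 the counts were 107 ± 0.577 in Col-0 and 107 ± 0.577 in fas2-4 (exact p = 0.6). Over the 1049 genes by identifier the counts were 114 ± 1.15 and 116 ± 1.53 in experiment 1 (exact p = 0.2), and 114 ± 1.15 and 117 ± 0 in experiment 2 (exact p = 0.1). The 2 sets differ in sign in experiment 1, since of the genes elsewhere 8.33 ± 1.15 were expressed in Col-0 and 13.3 ± 0.577 in libraries labelled hira-1 (exact p = 0.1).

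**Figure D2:**
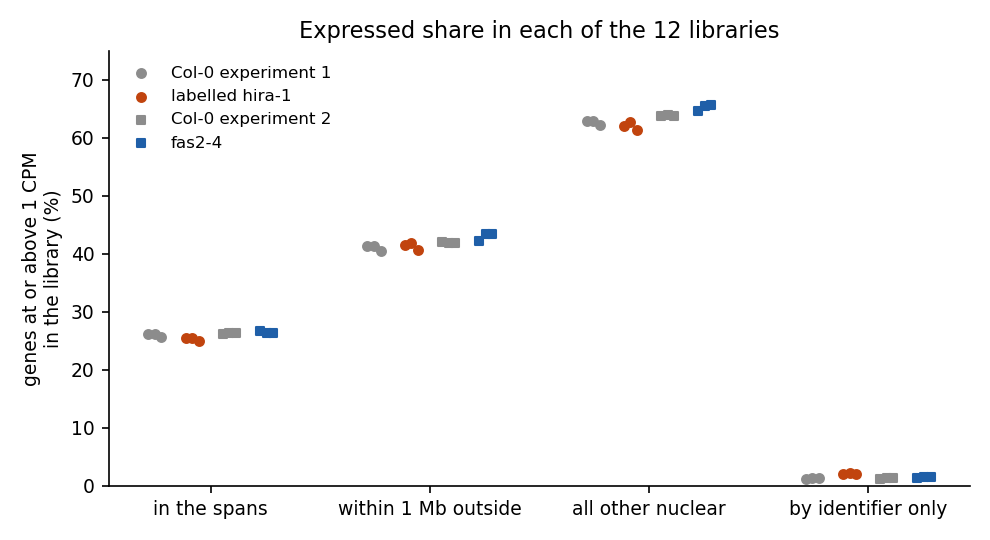
Percentage of genes at or above 1 CPM in each of the 12 libraries, for protein-coding genes in the spans, within 1 Mb outside them and elsewhere in the nuclear genome, and for the 641 genes in the intervals by identifier only. Each point is 1 library; the first 3 sets stand apart in every library.

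Distance from the satellite gave a gradient. Within 0.25 Mb of the nearest satellite window, 33.3% of 123 protein-coding genes were expressed, and from 0.5 to 1 Mb 35.1% of 265 were. The share was 48.6% of 1139 at 1 to 2 Mb, 54.7% of 1987 at 2 to 3 Mb and 70.3% of 19594 beyond 5 Mb. Below 1 Mb the 3 bins lay between 32.5% and 35.1%, and above 1 Mb each further bin was higher than the last. By chromosome, 10 of 32 genes in the span of chromosome 1 were expressed, 2 of 26 on chromosome 2, 53 of 210 on chromosome 3, 18 of 49 on chromosome 4 and 28 of 91 on chromosome 5.

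**Figure D3:**
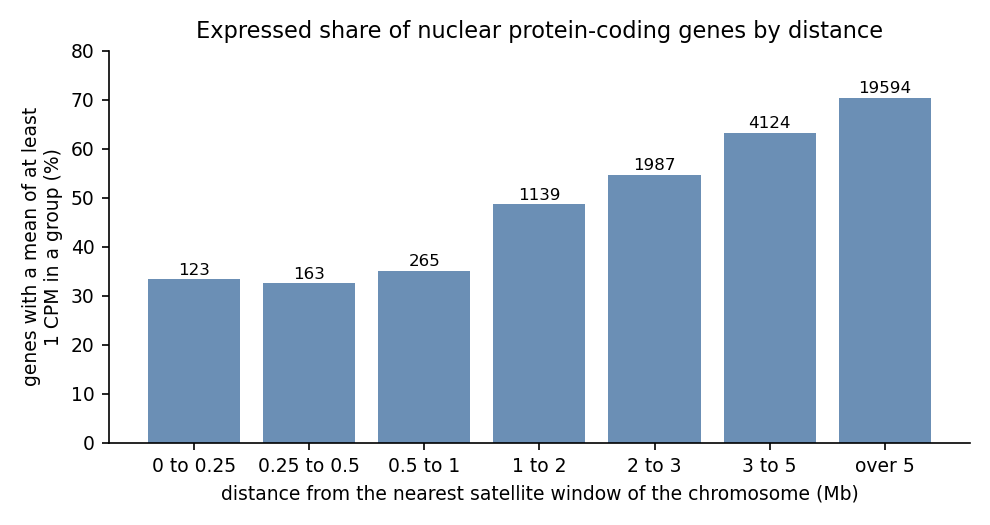
Percentage of nuclear protein-coding genes with a mean reaching 1 CPM in any group, by distance in Mb from the nearest satellite window on the same chromosome, AT2G07 genes left out; the number of genes stands over each bar. The bars rise from 33.3% next to the satellite to 70.3% beyond 5 Mb.

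The genes of the spans that were not expressed had shorter gene models than the expressed ones, as in the rest of the genome. The 286 protein-coding genes that were not expressed had a median exon length of 604 bases, and 52 of them (18.2%) had a near-identical copy elsewhere in the genome, defined as at least 95% identity over at least 80% of the exon length. The 108 expressed ones had a median of 1895 bases, close to the 1800 of expressed genes in the rest of the genome, and 2 of them (1.85%) had such a copy. In the rest of the genome the protein-coding genes that were not expressed had a median of 1035 bases, and 5.17% of them had a near-identical copy, against 0.923% of the expressed ones. Reads from near-identical copies may be split or lost in counting, and their part in the values of 0 was not tested. Genes of the spans overlapped another counted gene in 8.88% of cases, against 28.0% of other protein-coding genes, and their median GC content was 41.4% against 41.1%.

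What the products are called also differed. Of the 394 protein-coding genes in the spans, 119 (30.2%) are annotated as uncharacterized or hypothetical, against 11.5% of other protein-coding genes. Of the 119, 9 were expressed, against 40.1% of that class in the rest of the genome. Zinc finger or zinc knuckle proteins made up 27 (6.85%, against 2.07%), with 5 expressed, against 71.7% in the rest. None of 14 cysteine-rich or defensin-like genes was expressed, and in the rest of the genome only 16.6% of that class were. Kinases are encoded by 4 genes (1.02%, against 4.73%), with 1 expressed, against 74.5%. All 5 genes for ribosomal or RNA-binding proteins were expressed, as were 87.8% of that class in the rest. Of the 27 zinc finger or knuckle genes, AT3G42860 and AT3G43590 return below among the called genes.

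Several of the expressed genes were abundant. On the authors' TMM-scaled TPM values, which allow for gene length, the gene of the spans with the highest mean over the 12 libraries was AT3G41768, an 18S ribosomal RNA gene, at 1169 with a range from 636 to 2299. It has near-identical copies, so its counts cannot be given to this locus. RPS1 (AT5G30510), plastid ribosomal protein S1, followed at a mean TPM of 830 and a range from 647 to 946, within that of the 18S gene and above that of every gene named next. It lies 0.0409 Mb from a satellite window. GME (AT5G28840), an epimerase of ascorbate synthesis, had a mean TPM of 301 (176.1 to 450.5), and AT1G41880, a ribosomal protein L35Ae gene, 248 (155 to 333). The ranges of GME and AT1G41880 overlapped, so their order is within the spread. LTPG2, a lipid transfer protein, had a mean TPM of 200, the ribosomal protein S5 domain gene AT2G09990 had 180, the amino acid transporter gene AT3G30390 had 171 and AT3G42050, subunit H of the vacuolar proton pump, had 148. AT3G32930, annotated as a lumazine synthase, had 127 and CUE1, which carries phosphoenolpyruvate into plastids, had 113, and the ranges of these last 6 overlapped.

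Genes of the spans together gave 0.733 ± 0.0678% of nuclear counts in Col-0 of experiment 1 and 0.606 ± 0.0582% in libraries labelled hira-1 (exact p = 0.2). The noncoding genes in the spans gave 0.259 ± 0.0730% and 0.135 ± 0.0621% (exact p = 0.2), and the protein-coding ones 0.474 ± 0.0115% and 0.471 ± 0.00679% (exact p = 0.8). The 18S gene AT3G41768 had counts of 59587, 69358 and 38224 in Col-0 and 16771, 23730 and 41928 in libraries labelled hira-1. The third library of each group overlapped the other group, and the log2 change of −0.88 did not pass the threshold (edgeR: SE 0.36, adjusted p = 0.112). In experiment 2 the protein-coding genes gave 0.509 ± 0.00570% in Col-0 and 0.492 ± 0.0170% in fas2-4 (exact p = 0.3).

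Genes of the spans with no count in Col-0 rarely gained counts under either mutant label. Of 254 with no count in Col-0 of experiment 1, 1 gene, AT2G10535, had 10 or more counts over the libraries labelled hira-1 (0.394%), beside 34 of 8514 other nuclear genes (0.399%). In the opposite direction, of 247 with no count in libraries labelled hira-1 none had 10 or more in Col-0, beside 20 of 8399. Of 247 with no count in Col-0 of experiment 2, AT1G40129 and AT5G33390 had 10 or more counts over the fas2-4 libraries (0.810%), beside 37 of 7278 (0.508%), and of 215 with no count in fas2-4 none had 10 or more in Col-0, beside 7 of 6741. These 3 genes are named because of their small number, after their values were seen. A gene with no count in 3 libraries may still be expressed below the depth.

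The weakly expressed genes of the spans summed to more in both mutant groups. The 297 genes under a mean of 1 CPM in every group summed to 3.94 to 4.74 CPM per library in Col-0 of experiment 1 and to 5.33 to 7.28 CPM in libraries labelled hira-1, a ratio of means of 1.45. In experiment 2 they summed to 4.31 to 5.06 CPM in Col-0 and to 6.17 to 6.93 CPM in fas2-4, a ratio of 1.398. The groups did not overlap in either experiment (exact p = 0.1 in each, the smallest possible). Other nuclear genes under the same limit, coding and noncoding together, moved the same way, with ratios of 1.17 and 1.33. Among protein-coding genes alone the ratios were 1.368 and 1.404 in the spans and 1.105 and 1.347 for the others. The protein-coding ones within 1 Mb outside the spans had 1.26 and 1.54. Whether the ratios differ between these sets was not tested. The protein-coding genes under the limit had a median exon length of 604 bases in the spans and 1035 in the rest. Among tested genes, short exons went with higher log2 fold changes in experiment 1, as given below. The part of length in these ratios was not tested. Without the gene that contributed most, AT5G35120 in experiment 1 and AT3G42850 in experiment 2, the ratios of the 297 genes were 1.35 and 1.31.

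In libraries labelled hira-1, 16 of the 129 genes by identifier with enough counts to be tested passed the threshold (edgeR quasi-likelihood test, adjusted p under 0.05 over all genes), 7 higher and 9 lower, which is 12.4% against 13.7% of all genes tested. In the spans, 3 rose and 9 fell of 110 tested, with a median log2 fold change of −0.12 against −0.02 for other nuclear genes. The groups of 3 libraries did not overlap for 57 of the 129 genes (44.2%), against 38.6% of all genes, and 6.94% of all genes were called higher and 6.8% lower. The labels give replicate numbers but state no pairing. It was read from these same counts, where the deviations of same-numbered libraries of experiment 1 correlated, so p-values with the block depend on it. With replicate as a block 71 of the 129 were called (55.0%), 37 higher and 34 lower, against 51.2% of all genes. In each case the share of called genes was near that of the genome. The count rested on single libraries: none was called without Col-0 replicate 1, without Col-0 replicate 2 or without hira-1 replicate 1, where 0.0999%, 0.263% and 0.152% of all genes were. It was 4 of 132 without hira-1 replicate 3 (3.03%, against 2.33% of all genes), 25 of 134 without Col-0 replicate 3 (18.66%, against 18.66%) and 32 of 134 without hira-1 replicate 2 (23.9%, against 26.4%), so the counts moved with those of the genome. All 16 kept their direction in each of these 6 fits, which is all but fixed beforehand where the groups do not overlap. All 16 genes were also called with the block and with DESeq2.

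Length of the transcript moved with this comparison. Over all genes tested, the median log2 fold change was +0.44 in the 25% with the shortest exons and −0.59 in the 25% with the longest, while in experiment 2 the same values were +0.06 and +0.0034. With a correction for this trend, 12 genes by identifier were called (9.30%, against 10.1% of all genes) and 6 of the original 16 were among them. With block and correction together 46 were called (35.7%, against 38.5%), and with DESeq2 28 of 143 (19.6%, against 22.6%). The part of length in single calls was not tested. The exons of the tested genes had a median length of 1874 bases in the spans and 233 bases among the genes elsewhere.

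Of the genes lower in libraries labelled hira-1, PMI1 (AT1G42550), needed for chloroplast movement in light, had the smallest p. It had 70.5, 82.4 and 51.6 CPM in Col-0 against 21.1, 26.8 and 16.1 CPM in libraries labelled hira-1. The groups did not overlap, and the log2 change was −1.68 (edgeR: SE 0.25, adjusted p = 0.0176). After correction for exon length it was −1.13 and still passed (adjusted p = 0.00638). The gene overlaps GLR3.3, a glutamate receptor channel gene upstream of it on the same strand, which had −0.67 and did not pass (adjusted p = 0.078; 0.000203 with the replicate block).

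AT3G32940, encoding an RNA-binding KH domain protein, fell most. Its levels were 6.74, 8.03 and 2.39 CPM in Col-0 against 0.749, 1.82 and 0.782 CPM in libraries labelled hira-1, without overlap (log2 fold change −2.34, SE 0.52, adjusted p = 0.0302). It overlaps the lumazine synthase gene AT3G32930 on the opposite strand, which had +0.40 (adjusted p = 0.145; 0.00458 with the replicate block), and since the use of strand in counting is not known their reads cannot be separated. The zinc knuckle gene AT3G43590 had 10.5, 8.96 and 6.55 CPM in Col-0 against 3.84, 3.82 and 2.92 CPM in libraries labelled hira-1 (−1.30, SE 0.27, adjusted p = 0.0270), and it overlaps AAO2, an aldehyde oxidase gene. Both kept the call with the length correction, at −2.098 and −1.10.

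Near the right edge of the chromosome 5 span, 3 genes with identifiers between AT5G35170 and AT5G35210 fell. AT5G35170, an adenylate kinase gene, had 169, 175 and 134 CPM in Col-0 against 83.9, 107 and 88.3 CPM in libraries labelled hira-1 (−0.77, SE 0.18, adjusted p = 0.0327). AT5G35200, an ENTH domain gene of the clathrin adaptor type, had −0.69 (SE 0.19, adjusted p = 0.0441) and PTM (AT5G35210), a PHD transcription factor anchored by a transmembrane domain, −1.27 (SE 0.33, adjusted p = 0.0387). With the length correction their values were −0.47, −0.40 and −0.20, and none passed. PTM has 6197 bases of exon. EGY1, the next identifier, had −0.37 (adjusted p = 0.127; 0.00790 with the replicate block).

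The other 3 genes that fell were AT1G42440, similar to the pre-rRNA processing factor TSR1, at −0.99 (adjusted p = 0.0426), the leucine-rich repeat gene AT4G06744 at −1.27 (adjusted p = 0.04995), and PAP26, a purple acid phosphatase that recycles phosphate, at −0.57 (adjusted p = 0.0470). PAP26 had 166, 172 and 191 CPM in Col-0 against 125, 106 and 125 CPM in libraries labelled hira-1, without overlap. With the length correction these were −0.53, −1.21 and −0.20, and none passed.

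The 3 genes in the spans that rose in libraries labelled hira-1 were AT3G33528, AT2G09795 and AT4G07390. AT3G33528, an uncharacterized protein gene, had 1, 3 and 3 counts in Col-0 against 21, 23 and 45 in libraries labelled hira-1, or 0.105 ± 0.0514 and 1.47 ± 0.758 CPM. The log2 fold change was +3.73 (SE 0.60, adjusted p = 0.0201), and it was +3.36 with the length correction. AT2G09795, a long noncoding RNA gene whose middle lies 0.00834 Mb from a satellite window, had 11.7, 12.2 and 20.01 CPM in Col-0 against 31.4, 23.7 and 44.4 CPM in libraries labelled hira-1 (+1.18, SE 0.29, adjusted p = 0.0358). It is 2861 bases long and was +1.67 with the length correction. AT4G07390, similar to a factor of dolichol-linked sugar use, had 25.3, 30.9 and 35.3 CPM in Col-0 against 58.7, 39.3 and 52.8 CPM in libraries labelled hira-1 (+0.72, SE 0.21, adjusted p = 0.0498). With the length correction alone AT4G07390 did not pass, while AT3G33528 and AT2G09795 did.

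The genes elsewhere were mostly higher in libraries labelled hira-1, and so were other noncoding RNA genes. Of 19 tested, 16 had a positive log2 fold change, 4 rose and none fell at the threshold (9 at an unadjusted p under 0.05, 5 higher and none lower with DESeq2), with a median log2 fold change of +0.96. Of 328 other noncoding genes tested, 82 rose and 2 fell, with a median of +0.79. With the length correction the medians were +0.29 and +0.27, and of the 19 genes elsewhere 1 rose (AT2G08735, +2.32, adjusted p = 0.0235) and 1 fell (AT2G08765, −1.92, adjusted p = 0.0188), so that 3 of the 4 rises lost the call. Both are named for their small number, after their values were seen. The long noncoding RNA gene AT2G08735 had 5, 2 and 4 counts in Col-0 against 31, 24 and 25 in libraries labelled hira-1 (+2.94, SE 0.48, adjusted p = 0.0201), and AT4G06195 had 2.89, 1.91 and 3.297 CPM against 6.99, 5.60 and 9.65 CPM (+1.45, SE 0.31, adjusted p = 0.0279). The fourth, the small nucleolar RNA gene AT4G06255, stayed under 1 CPM (+2.59, adjusted p = 0.0480) and has near-identical copies.

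**Figure D4:**
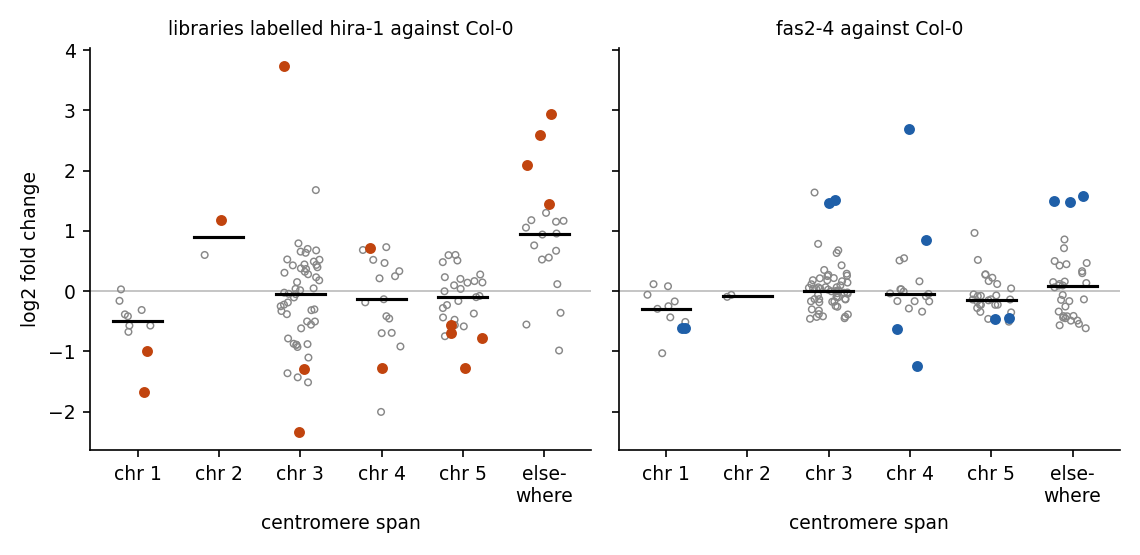
Log2 fold change of each tested gene by centromere span, and of the genes elsewhere, in libraries labelled hira-1 (left) and in fas2-4 (right), each against the Col-0 libraries of its experiment. Filled points passed an edgeR adjusted p of 0.05, open points did not, and bars are medians; the genes elsewhere sit at a median of +0.96 on the left and +0.08 on the right.

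In fas2-4, 13 of 151 tested genes by identifier passed the threshold, 7 higher and 6 lower, which is 8.61% against 9.74% of all genes tested. In the spans, 4 rose and 6 fell of 117 tested. Among all genes tested 6.78% rose and 2.96% fell, and the median log2 fold change was −0.06 in the spans against +0.03 for other nuclear genes. The groups did not overlap for 39 of the 151 genes (25.8%), against 31.7% of all genes. The share called was near that of the genome. With the replicate block 9 were called (against 7.32% of all genes), with the length correction 23 (against 16.7%), with both 23 (against 15.4%) and with DESeq2 20 of 197 (against 13.6%). The count was 5, 3 and 4 of 156 genes without Col-0 replicate 1, 2 or 3, where 3.35%, 3.57% and 3.17% of all genes were called. It was 37 of 155 without fas2-4 replicate 1 (23.9%, against 28.0% of all genes), 8 of 154 without replicate 2 (against 7.19%) and 8 of 153 without replicate 3 (against 5.16%). All 13 kept their direction in each of these fits, which is all but fixed beforehand where the groups do not overlap.

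Among the genes that rose in fas2-4, AT3G42860 and AT3G42725 had the smallest p values in the spans. The zinc knuckle gene AT3G42860 had 1.90, 2.26 and 1.67 CPM in Col-0 against 4.48, 5.79 and 5.80 CPM in fas2-4. The groups lay apart, and the gene rose by a log2 change of +1.46 (edgeR: SE 0.19, adjusted p = 0.00341). Its level in libraries labelled hira-1 was 0.649, 1.16 and 0.730 CPM, beside 0.678, 1.198 and 0.587 CPM in their Col-0 set (+0.05, adjusted p = 0.945).

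The putative lipoprotein gene AT3G42725 had 1.35, 1.88 and 2.03 CPM in Col-0 against 5.41, 5.32 and 4.28 CPM in fas2-4 (+1.51, SE 0.21, adjusted p = 0.00399). Its level in libraries labelled hira-1 was 3.54, 2.49 and 4.12 CPM against 1.45, 1.91 and 2.98 CPM in Col-0, where the groups overlapped (+0.68, adjusted p = 0.191; 0.0364 with the replicate block). AT3G42725 and AT3G42860 lie 1.17 and 1.28 Mb from the nearest satellite window.

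EHD2 (AT4G05520), an EPS15 homology domain protein of endocytosis, had 10.14, 10.04 and 9.83 CPM in Col-0 against 12.7, 19.7 and 21.6 CPM in fas2-4 (+0.85, SE 0.19, adjusted p = 0.0288). Close to it, AT4G05540 rose from a mean of 0.154 CPM to 0.998 CPM (+2.69, SE 0.58, adjusted p = 0.0230). Both lie at the left edge of the chromosome 4 span.

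The other 3 that rose lie elsewhere, and all are long noncoding RNA genes. AT4G06080 had 0.494, 0.376 and 0.384 CPM in Col-0 against 1.38, 1.14 and 1.25 CPM in fas2-4 (+1.58, SE 0.25, adjusted p = 0.00673). It was the single gene called in both comparisons: in libraries labelled hira-1 it had 2.097, 1.07 and 2.09 CPM against 0.317, 0.577 and 0.316 CPM (+2.095, SE 0.45, adjusted p = 0.0285), where the length correction left +1.33 without passing (adjusted p = 0.077). AT4G07815 had 0.650, 1.56 and 1.24 CPM in Col-0 against 3.15, 4.39 and 2.06 CPM in fas2-4 (+1.48, adjusted p = 0.0383), and AT4G07170 stayed under 1 CPM (+1.49, adjusted p = 0.0167).

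Among the genes that fell in fas2-4 was RPS1, one of the most abundant of the spans. RPS1 had 966, 1002 and 1012 CPM in Col-0 against 775, 699 and 697 CPM in fas2-4, without overlap (log2 fold change −0.46, SE 0.11, adjusted p = 0.0395). SKS6 (AT1G41830), a multicopper oxidase-like protein of the cell wall, had 141, 165 and 150 CPM in Col-0 against 96.7, 102 and 99.4 CPM in fas2-4 (−0.61, SE 0.11, adjusted p = 0.0123). EGY1, a membrane protease needed for chloroplast development, had −0.44 (SE 0.11, adjusted p = 0.0384). The summed leaf markers were also lower in fas2-4 than in its Col-0 libraries, as given above, and their part in these falls was not tested.

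RAP2.9 (AT4G06746), of the ethylene response factor family, had 3.12, 1.96 and 2.44 CPM in Col-0 against 1.56, 0.736 and 0.902 CPM in fas2-4 (−1.24, SE 0.32, adjusted p = 0.0424). AT1G42430, which the annotation names inactive phosphatase-like, had −0.62 (adjusted p = 0.0150) and the bZIP transcription factor gene AT4G06598 −0.62 (adjusted p = 0.0282). Among libraries labelled hira-1 these last 3 had −0.92, −0.31 and −0.70 and did not pass, with adjusted p of 0.128, 0.194 and 0.108. With the replicate block, AT4G06598 passed there (adjusted p = 0.00778).

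**Figure D5:**
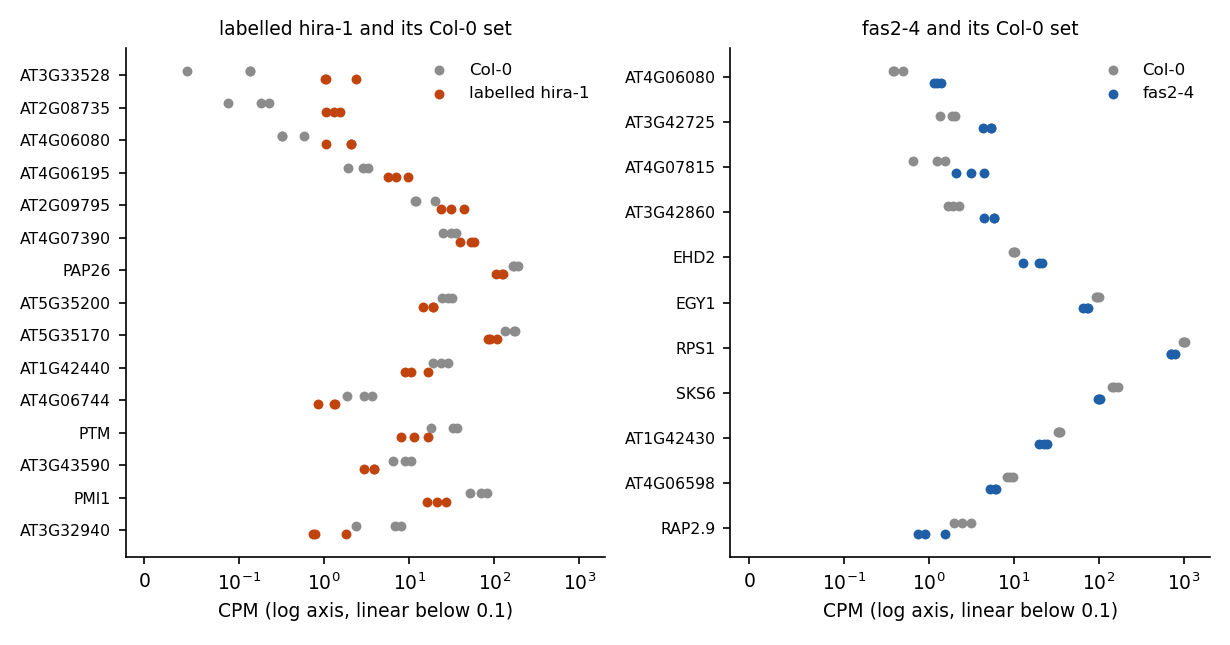
CPM of the called genes with a mean reaching 1 CPM in any group, in each Col-0 library (grey) and each library labelled hira-1 (orange, left) or fas2-4 (blue, right); the axis is logarithmic above 0.1 CPM and linear below. In none of the genes do the coloured and grey points of a panel overlap.

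The difference between the effects in fas2-4 and in libraries labelled hira-1 passed the threshold for 17 of 153 genes by identifier, 6 higher and 11 lower in fas2-4, which is 11.1% against 11.6% of all genes, 5.84% higher and 5.73% lower. The effects do not share control libraries, but experiment and mutant cannot be told apart in this contrast. Between the Col-0 sets of the experiments 29 of 153 genes differed (19.0%, against 24.4% of all genes, 11.2% higher and 13.2% lower), 17 higher in experiment 2 and 12 lower. Without single libraries the number of genes whose effects differed ran from 3 of 170 (without Col-0 replicate 1 of experiment 1, against 3.48% of all genes) to 32 of 168 (without hira-1 replicate 2, against 23.4%). It was 29 of 149 without fas2-4 replicate 1 (against 22.4%), 25 of 171 without Col-0 replicate 3 of experiment 1 (against 18.1%) and 10 or fewer without any other library, where 3.76% to 8.41% of all genes were called. With the replicate block it was 41 (against 32.1% of all genes).

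The count of listed genes that passed depended on the replicate block in libraries labelled hira-1. Of 26 genes in 6 lists by role, 23 were tested there, and 2 passed with neither block nor length correction. With the length correction alone 4 passed, 2 higher and 2 lower (17.4%, against 10.1% of all genes). It was 15 with the block (3 higher and 12 lower, 65.2% against 51.2% of all genes) and 10 with both (5 higher and 5 lower, 43.5% against 38.5%). Of 3 genes of chromatin and silencing, CLSY1 (annotated CHR38), a remodeller that recruits the small RNA polymerase Pol IV, had 2.85, 2.66 and 1.35 CPM in Col-0 against 0.449, 1.73 and 0.313 CPM in libraries labelled hira-1 (−1.43, SE 0.60, adjusted p = 0.122). DAYSLEEPER, a protein derived from a hAT transposase, had −0.89 there (adjusted p = 0.103) and BPM6, a substrate adaptor of ubiquitin ligases, −0.38 (adjusted p = 0.343). With the replicate block CLSY1 and DAYSLEEPER passed, and with block and length correction together only DAYSLEEPER did (−0.60, adjusted p = 0.00198). In fas2-4 none of the 3 passed, at adjusted p of 0.959, 0.992 and 0.977.

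Of 4 genes of plastids and photosynthesis, EGY1 and RPS1 fell in fas2-4 and none passed in libraries labelled hira-1 without the block, where CUE1 had 145, 151 and 129 CPM in Col-0 and 209, 205 and 179 CPM (+0.48, SE 0.16, adjusted p = 0.0677; 0.000469 with the replicate block). Of 4 hormone genes, 3 were tested and none passed in either mutant with neither block nor length correction. BR6OX2, the last enzyme of brassinosteroid synthesis, had 11.4, 11.1 and 12.2 CPM in Col-0 against 22.9, 15.0 and 18.6 CPM in libraries labelled hira-1 (+0.70, SE 0.20, adjusted p = 0.0511), without overlap. It passed with the replicate block (adjusted p = 0.000401), as did the methyl esterase gene MES11 (+0.63, adjusted p = 0.000923) and, lower, AAO2 (−0.60, adjusted p = 0.00539). With the length correction alone BR6OX2 and MES11 passed too, at adjusted p of 0.0379 and 0.0378. RGF4, a root meristem peptide, had 0 to 3 counts per library and was not tested.

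Of 5 genes of stress, sugar and proline, PAP26 was the single call in libraries labelled hira-1 with neither block nor length correction. None of the 4 tested passed in fas2-4. SUS4, a sucrose synthase, had 0.704 ± 0.1197 CPM in Col-0 and 0.243 ± 0.0841 CPM in libraries labelled hira-1 (−1.51, SE 0.48, adjusted p = 0.0612; 0.0299 with the replicate block), and the protease gene CDR1 had no count in any library. Of 5 transport and membrane genes, SKS6 fell in fas2-4 and none passed in libraries labelled hira-1, where the proton pump gene AHA8 had −1.30 (adjusted p = 0.0567; 0.00108 with the replicate block). With the block, 4 of these 5 passed there, all lower. Of the 5 genes in the last list, headed growth and division, PMI1 fell in libraries labelled hira-1 and none passed in fas2-4. TES, a kinesin of cytokinesis, passed in libraries labelled hira-1 with the replicate block only (−0.89, adjusted p = 0.0214). The heading is loose, since PMI1 acts in chloroplast movement and GME in ascorbate synthesis. GME had −0.28 in fas2-4 (adjusted p = 0.188), and TES +0.68 (adjusted p = 0.231). In none of the 6 lists did a gene rise at the threshold with neither block nor length correction.

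Genes elsewhere in the genome that hold pericentromeric heterochromatin silent or build centromeres were listed as well. Of 24, 23 were tested in libraries labelled hira-1, with 1 higher and 3 lower (17.4%, against 13.7% of all genes) and a median log2 fold change of −0.30, and 24 in fas2-4, with 2 higher and none lower (8.33%, against 9.74%) and a median of +0.29. With the replicate block 10 passed in libraries labelled hira-1 (43.5%, against 51.2%), 3 higher and 7 lower, and with the length correction 2 (8.70%, against 10.1%). In libraries labelled hira-1 the ATPase gene MORC6 (annotated DMS11) rose, and MET1, the maintenance DNA methyltransferase, the H3K9 methyltransferase gene SUVH6 and the linker histone gene H1.1 fell. With the length correction alone MORC6 and H1.1 kept the call, and MET1 and SUVH6 did not pass. With block and length correction together SUVH6 passed and MET1 did not. In fas2-4 the heterochromatic H2A.W genes HTA6 and HTA7 rose.

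The AT2G07 genes gave little RNA. Of the 98, 29 had no count in any library and 4 were expressed. Of the 49 protein-coding ones, 44 have a copy in the mitochondrial genome and 46 have a near-identical copy somewhere, so a read cannot be given to the nuclear insertion. The most abundant, AT2G07715, had 2.64 ± 0.264 CPM in Col-0 of experiment 1, 2.93 ± 1.56 in libraries labelled hira-1, 6.22 ± 0.662 in Col-0 of experiment 2 and 6.20 ± 1.14 in fas2-4. With edgeR none passed of 12 tested in libraries labelled hira-1 and none of 13 in fas2-4, with 1 at an unadjusted p under 0.05 in each and 1 and 0 called by DESeq2.

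Steep rises in libraries labelled hira-1 lay next to the spans and not among these genes. Of 15 genes called at least 16-fold higher there, 12 lie within 1 Mb outside the spans, 3 further away and none among the 1049. Of the 18739 genes tested, 532 lie within 1 Mb outside the spans and only 129 are among the 1049, so none among the latter says little. The list was chosen after the values were seen, and the ends of the identifier intervals were set with such results known, so the absence from the intervals carries no test.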

How the data were processed

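RNA from whole seedlings was sequenced in 4 groups of 3 libraries. Per the submitters' processing notes, fastp 0.23.4 and HISAT2 2.2.1 were used, with TAIR10 as the build; how reads were counted, with which annotation and whether by strand, is not given in the sources used here. As files, the authors deposited raw counts per gene and TPM values scaled between samples, the latter used here as a score to compare levels between genes. Gene positions were taken from the RefSeq annotation of TAIR10.1, with near-identical copies found by BLAST 2.17.0.

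The members, the interval edges and the gene lists were chosen with earlier results of these data known. Genes were tested on the counts with edgeR 4.0.16 (quasi-likelihood, robust, TMM scaling, default low-count filter) in R 4.3.3, experiment by experiment, with Benjamini-Hochberg adjustment over all genes and a threshold of 0.05. Standard errors are the size of the log2 change over the root of F. Summaries per library were compared by exact permutation of 3 against 3 libraries, in 20 splits, 2-sided. DESeq2 1.42.0, other scalings and filters, a correction for exon length, a replicate block and fits without each library were alternatives. In experiment 1 the deviations of same-numbered libraries correlated at 0.21, 0.43 and 0.51, and they were taken as pairs in the block. In experiment 2 they correlated at −0.06, 0.16 and −0.00, which does not pair them. The labels state no pairing, and whether the libraries of experiment 1 were handled in pairs was not tested. The fits were tested on simulated data.

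Named genes are called members reaching a mean of 1 CPM in a group, the 10 with the highest mean TPM, the smallest p per interval, those called in both comparisons, the 5 smallest p for the difference of the effects, the listed genes and 5 AT2G07 genes. Totals of 20700171 to 39510509 counts per library limit what a gene with no count can show.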

Additional observations from a re-analysis of the deposited data

Results flagged for a closer look

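For 12 named genes the effect in fas2-4 and the effect in libraries labelled hira-1 differed by edgeR's test of the difference itself. Values are the first minus the second on the log2 scale. The named genes include the 5 with the smallest p for this difference and genes called in a mutant, so their number carries no test. Of all genes by identifier, 17 of 153 passed (11.1%, against 11.6% of all genes). The difference was positive for AT3G32940 at 2.53 (adjusted p = 0.0175), PMI1 (AT1G42550) at 1.36 (0.0159), AT4G06744 at 1.26 (0.0474), AT3G43590 at 1.09 (0.0431) and AT5G35200 at 0.79 (0.0379), all of which fell in libraries labelled hira-1. It was negative for AT3G33528 at −2.98 (0.0208), AT4G06195 at −1.998 (0.0134) and AT2G09795 at −1.24 (0.0454), which rose there.

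It was also negative for 4 genes called in neither or in fas2-4 only. AT2G08610, a noncoding RNA gene outside the spans, had −1.56 (adjusted p = 0.0206), MES11 (AT3G29770) −1.03 (0.0144), the RNA-binding protein gene AT5G32450 −0.96 (0.0189) and RPS1 (AT5G30510) −0.62 (0.0391). Experiment and mutant cannot be told apart in these differences.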

How the results depend on the processing

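Genes called by identifier in libraries labelled hira-1 numbered 16, and 71 with the replicate block, 46 with block and length correction, 28 with DESeq2, 5 of 35 tested in the central 50% of each interval (14.3%, against 13.7% of all genes) and 0 to 32 without 1 library. In fas2-4 they numbered 13, and 23 with the length correction, 23 with length correction and block and 20 with DESeq2. They were 3 of 36 in the central 50% (8.33%, against 9.74%) and 3 to 37 without 1 library. The replicate block gave 9, and the correlations did not pair these libraries. Effects differed for 17 genes, for 41 with the replicate block and for 3 to 32 without 1 library. Shares over all genes without single libraries, which moved alike, are given with each comparison.

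The median log2 fold change by identifier in libraries labelled hira-1 was −0.00, and 0.21 without a filter, −0.12 in the spans only (chosen after seeing the data) and −0.0433 to 0.0819 without 1 library. In fas2-4 it was −0.06, and 0.0389 without a filter and −0.10 to −0.02 without 1 library. The difference in expressed genes per library was 2.0 in libraries labelled hira-1 and turned to −1.67 in the central 50%, −3.0 in the spans only and −2.67 at 5 CPM, with 1.33 to 2.83 without 1 library. In fas2-4 it was 2.67, and −0.667 in the central 50%, with 2.0 to 3.0 without 1 library. The difference in share of nuclear counts was −0.160 to −0.0927 percentage points without 1 library in libraries labelled hira-1, and −0.0205 to 0.00824 in fas2-4, where it turned positive without Col-0 replicate 1 (0.001325) and without fas2-4 replicate 1 (0.00824). The cause was not tested.

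AT1G42470 turned from −0.38 to +0.50 in libraries labelled hira-1 with block and length correction. Of 51 named genes, the replicate block added 22 calls there, and the length correction ended 9 and added 4. Over all genes tested there, 13.7% were called, 51.2% with the block and 10.1% with the length correction. Many of the named genes were chosen because they were called, so these counts carry no test. These comparisons are limited by choosing genes by identifier, by 3 libraries a group, and by HIRA counts that did not fall where the label is hira-1.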

Other observations

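Next to the chromosome 1 span, in the 1 Mb below its start, 9 of 27 tested genes rose in fas2-4 and none fell (edgeR, adjusted p under 0.05), against 6.78% higher and 2.96% lower of all genes tested, with a median log2 fold change of +0.23. They include ACC2, an acetyl-CoA carboxylase, at +2.44 (SE 0.38, adjusted p = 0.00605), SHM7, a serine hydroxymethyltransferase, at +1.17 (adjusted p = 0.0161), TPPD, a trehalose-phosphate phosphatase, at +1.06 (adjusted p = 0.00758), and ANNAT1, an annexin, at +0.93 (adjusted p = 0.0124). The window was chosen after the values were seen, so this is a description.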
